A study of Mus musculus with 9 samples.

Results

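The genes of the DNA damage response and of DNA repair were followed as a set of 57 genes, chosen by symbol, among the 24228 named genes of an RNA sequencing table of fully grown mouse oocytes. The oocytes were at the germinal vesicle stage, the prophase arrest before meiosis resumes, and were taken from large antral follicles of C57BL/6 females, 46 h after an injection of 5 IU of the gonadotropin PMSG. The MG group was a conditional knockout of Mtor, a growth kinase, in oocytes by Cre recombinase driven by Gdf9. The MZ group had Mtor knocked out by Cre driven by Zp3, a promoter that comes on later in follicle growth than that of Gdf9. The WT group was wild type, and all 3 groups shared the priming. Each group had 3 libraries. The sources used here do not say whether separate animals gave the libraries or how many oocytes each held, so p-values measure the spread among libraries alone, and that spread may be technical. The series design gives an age of 23 days, while the sample labels give 6 months.

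The DNA damage response starts with sensors that find broken or stalled DNA, passes through the kinases ATM and ATR to their effector kinases CHK2 and CHK1, and ends in arrest, repair or cell death. Mouse oocytes arrested in prophase carry intact homologues and sister chromatids and hold large stores of maternal mRNA. In oocytes of primordial follicles the p63 protein, activated by CHK2, is known to trigger death after DNA damage, whereas p53 has the larger part in most somatic cells. Repair is divided among homologous recombination and end joining for double-strand breaks, excision pathways for damaged bases, mismatch repair for replication errors, and the Fanconi anaemia pathway for crosslinks.

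The values are FPKM (fragments scaled to transcript length and library size), which can be compared between genes. Depth, estimated from the spacing of low values, ran from about 472300 fragments in MZ 1 to 855000 in MG 3. A single fragment in a 1 kb transcript was worth 1.71 to 3.06 FPKM, so low FPKM rest on few fragments. The FPKM of all genes summed to 428329 to 554305 in MG, 657851 to 677618 in MZ and 584503 to 718684 in WT libraries, with the lowest sum in MG 3. Markers of oocytes were abundant, with all 14 detected and summed levels of 17805 to 35621 FPKM in MG, 39241 to 40467 in MZ and 32157 to 39750 in WT. The 16 granulosa and cumulus markers summed to 22.9 to 41.2, 24.0 to 28.2 and 21.6 to 34.8 FPKM in MG, MZ and WT libraries. Cyp19a1 was the highest of them in every library, at 8.03 to 25.7 FPKM, while Foxl2 and Amhr2 were at 0 in all 9. The 10 theca and stroma markers summed to 16.5 to 27.8, 11.6 to 48.1 and 17.0 to 25.1 FPKM in the same order. Dcn was the highest of those in every library, at 8.34 to 31.3 FPKM. The 10 blood and immune markers summed to 33.1 to 140.4, 19.6 to 170.2 and 44.5 to 53.6 FPKM in MG, MZ and WT libraries, mostly from Lyz2. Mtor itself had 5.25, 6.00 and 4.64 FPKM in MG, 6.55, 4.67 and 4.39 in MZ and 3.25, 3.33 and 2.95 in WT, so the gene-level value did not show the deletion, and MG and MZ stand for the libraries labelled so.

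Of the 57 genes, 51 passed the filter of at least 1 FPKM in at least 3 libraries and were tested in a fit over 10801 genes. The 6 others, Atm, Atr, Chek2, Prkdc, Lig1 and Fanca, were near or at 0 in most libraries. The 51 had a median level of 6.69 FPKM, against 6.71 FPKM over all tested genes. Levels were uneven, with 4 genes averaging 50 FPKM or more over the 9 libraries, 16 between 10 and 50, 30 between 1 and 10, and 7 under 1. Mdm4, Chek1, Mdm2 and Ung were the 4 highest, and together held 61.1 to 63.7% of the summed FPKM of the 57 genes in MG libraries, 68.1 to 69.3% in MZ libraries and 71.0, 69.2 and 70.4% in WT libraries. The MG shares lay below all MZ and WT shares. Of the 57 genes, 43 were above 0 in every library and 16 share a locus with another row of the table, where reads may be split between neighbours.

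**Figure D1:**
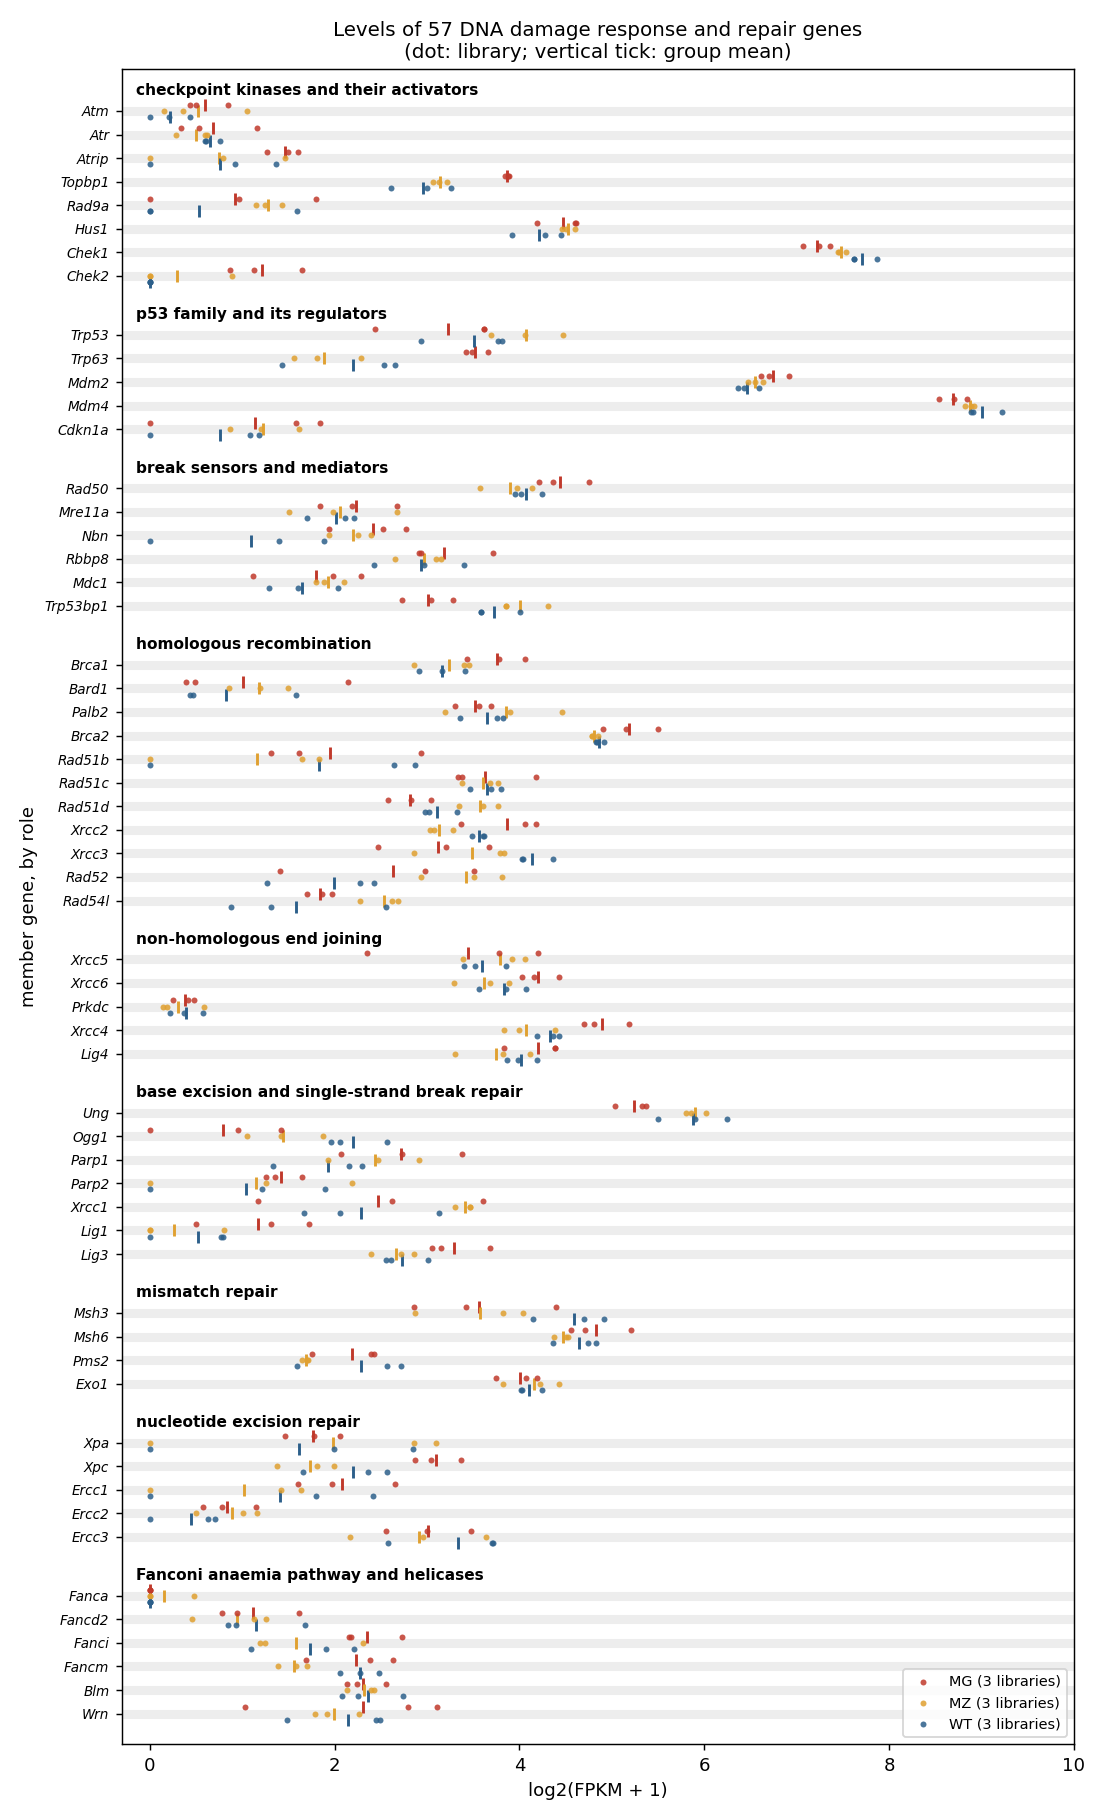
Levels of the 57 genes by role, as log2(FPKM + 1) on the horizontal axis, with a dot for each of 3 MG, 3 MZ and 3 WT libraries and a tick for each group mean. Mdm4, Chek1 and Mdm2 stand apart at the right, while Atm, Atr, Prkdc and Fanca lie near 0 in every group. Ung has the next highest mean, but its MG dots (31.9 to 40.2 FPKM) overlap those of Brca2 (29.0 to 44.3 FPKM).

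No member passed the threshold of an adjusted p under 0.05 in any of the 3 comparisons (limma with Benjamini-Hochberg adjustment over all tested genes). For MG against WT 0 of 51 members passed, where 0.343% of all tested genes did. At an unadjusted p under 0.05 there were 11 members (5 higher and 6 lower in MG), 21.6% of the 51 against 17.7% of all tested genes (8.43% higher and 9.31% lower). The 3 MG and 3 WT values did not overlap for 14 members (8 higher and 6 lower in MG), 27.5% against 21.5% of all tested genes (11.6% higher and 9.89% lower). For MZ against WT 0 of 51 passed (0.037% of all tested genes), and 3 had an unadjusted p under 0.05 (2 higher and 1 lower in MZ), 5.88% against 6.3% of all tested genes (2.68% higher and 3.62% lower). Without overlap were 11 (5 higher and 6 lower in MZ), 21.6% against 12.2% of all tested genes (5.67% higher and 6.52% lower). For MG against MZ 0 of 51 passed (0.13% of all tested genes), and 9 had an unadjusted p under 0.05 (6 higher and 3 lower in MG), 17.6% of the 51 and also 17.6% of all tested genes (8.32% higher and 9.32% lower). Without overlap were 17 (11 higher and 6 lower in MG), 33.3% against 25.2% of all tested genes (12.8% higher and 12.3% lower). The shares at an unadjusted p under 0.05 were near those of all genes. In the authors' deposited table, no member had a q-value under 0.05 for MG against WT (4.13% of all tested genes) or MZ against WT (0.787%), and Ung (q = 0.0215) and Xrcc4 (q = 0.0452) did for MG against MZ (9.05%). In the authors' deposited table the p-value is listed as 1 for 47, 48 and 45 of the 57 members in these 3 comparisons, so few members carry another value there.

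The median log2 fold change of the 51 tested members was 0.18 for MG against WT, beside 0.04 over all tested genes, and 33 of 51 values were above 0 (5722 of 10801 over all tested genes). For MZ against WT the median was -0.01, beside 0.01 over all genes, with 25 of 51 above 0 (5516 of 10801 over all tested genes). For MG against MZ it was 0.17, beside 0.04, with 28 of 51 above 0 (5754 of 10801 over all tested genes). MG against WT and MZ against WT share the WT libraries. Transcript length differed between the members and all genes: 37 of the 51 genes have a longest transcript above the median of all tested genes (3158 bp), and over all tested genes those with longer transcripts had a median of 0.16 and those with shorter ones -0.09 for MG against WT. The same split of the members gave 0.22 for the 37 longer and 0.17 for the 14 shorter ones, and for MG against MZ 0.22 and -0.15. With that length trend removed, a setting chosen after seeing the data, the medians were 0.05 for MG against WT and -0.01 for MG against MZ. No member passed in that setting, and the named fold changes kept their direction.

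**Figure D2:**
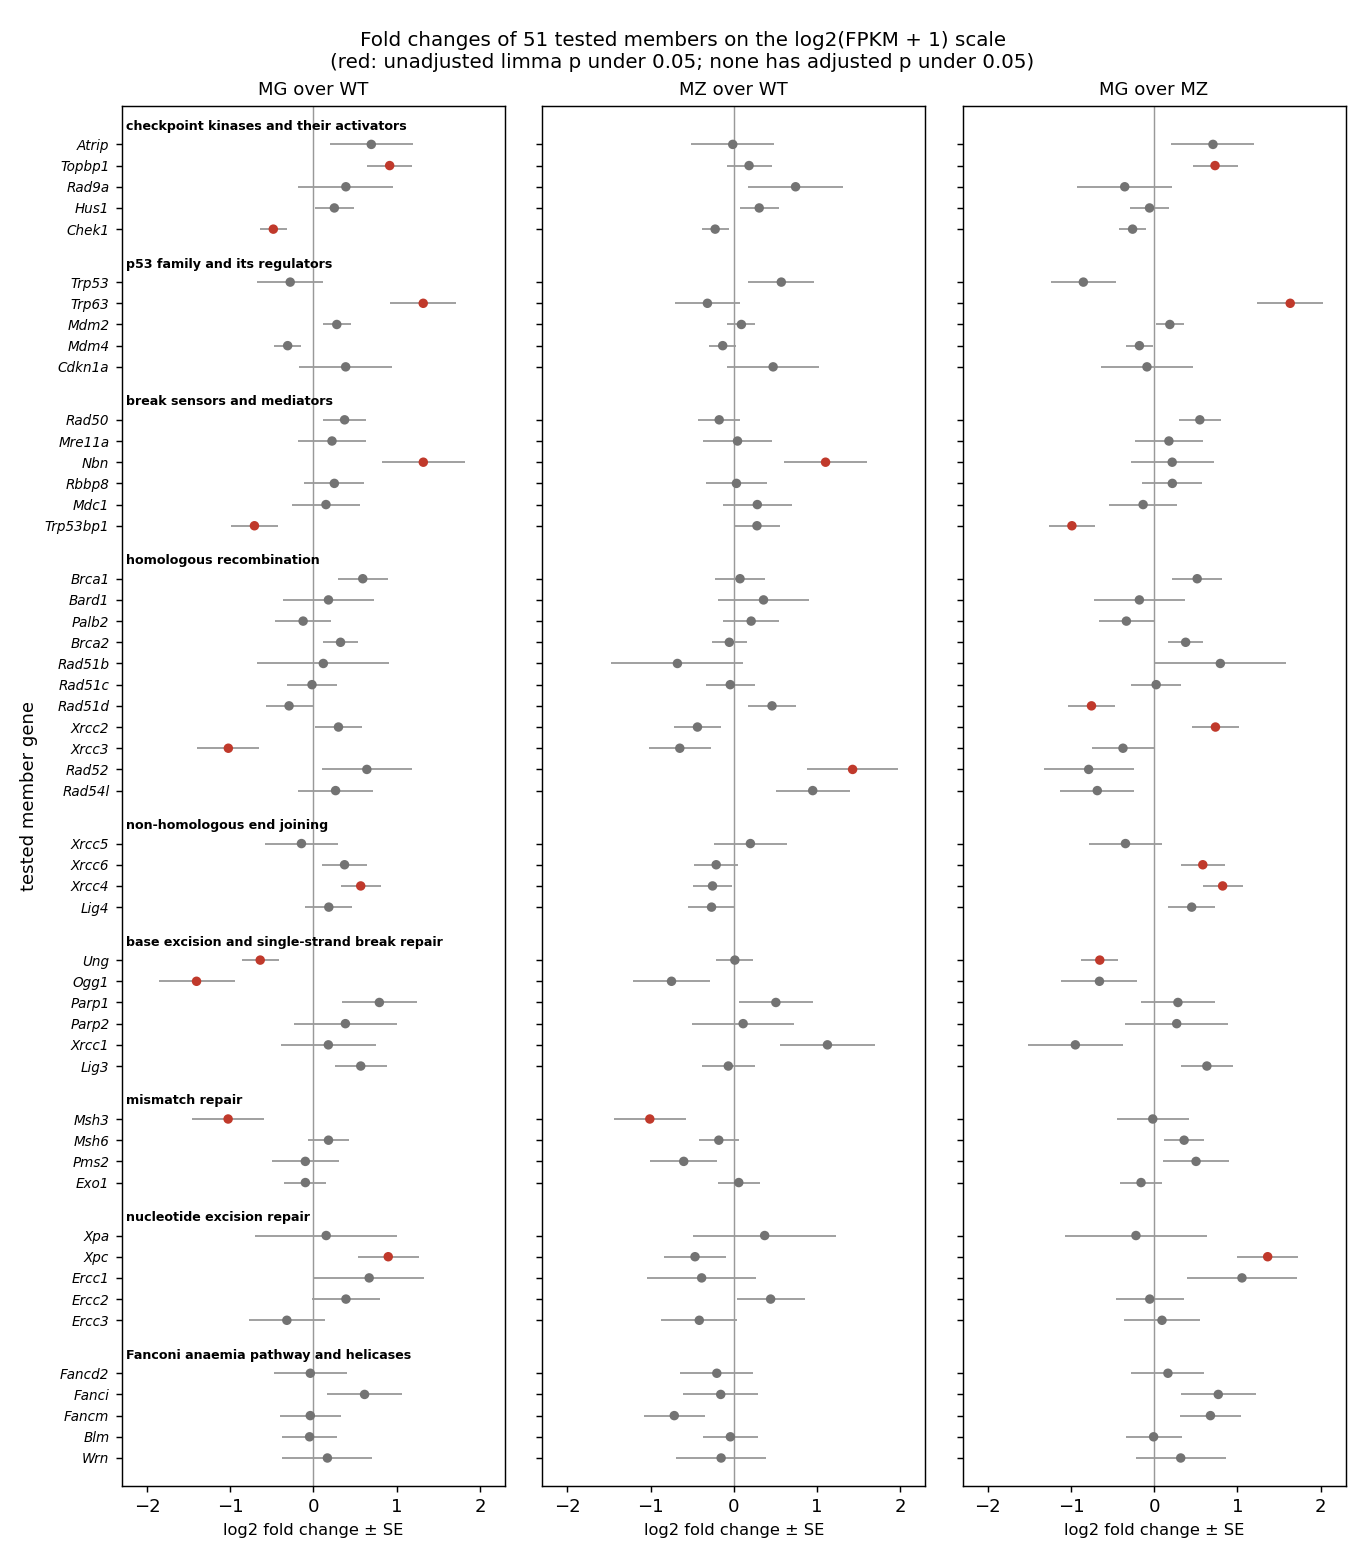
Fold changes of the 51 tested genes on the log2(FPKM + 1) scale with their standard errors, in 3 panels for MG over WT, MZ over WT and MG over MZ. Red dots have an unadjusted limma p under 0.05 (11, 3 and 9 genes) and none has an adjusted p under 0.05.

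Among the checkpoint kinases and their activators the effector kinase of the ATR branch dominated. Chek1, which encodes CHK1 (chromosome 9, 36708482 to 36727065, GRCm38), had 133, 150.1 and 163 FPKM in MG, 184, 174 and 175 in MZ, and 233, 196 and 196 in WT libraries. Every MG value was below every MZ value, and every MZ value below every WT value. The log2 fold change of MG over WT was -0.48 ± 0.16 (SE, limma adjusted p = 0.17). As a share of each library's FPKM sum, MG no longer lay below the other groups. Chek1 made up 0.0240, 0.0292 and 0.0381% in MG, 0.0272, 0.0257 and 0.0266% in MZ and 0.0324, 0.0335 and 0.0299% in WT. The MG shares overlapped those of MZ and of WT, while every MZ share stayed below every WT share.

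Topbp1 (chromosome 9, 103305215 to 103350428), whose product activates ATR, went the other way. Its FPKM was 13.4, 13.7 and 13.8 in MG, 7.39, 7.78 and 8.27 in MZ, and 8.59, 6.97 and 5.09 in WT. The MG values were close to each other and above all MZ and WT values. On the log2 scale the difference was 0.92 ± 0.27 for MG over WT (SE, limma adjusted p = 0.13) and 0.73 ± 0.27 for MG over MZ (SE, limma adjusted p = 0.19), resting on about 131, 70 and 53 fragments in the 3 MG, 3 MZ and 3 WT libraries. Its share of the FPKM sum was also above the other groups in all MG libraries (0.00241 to 0.00322% in MG, 0.00109 to 0.00126% in MZ, 0.00078 to 0.0012% in WT).

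The upstream kinases themselves were close to the limit of detection. Atm had 0.356, 0.414 and 0.801 FPKM in MG, 1.08, 0.115 and 0.284 in MZ, and 0.154, 0 and 0.3501 in WT, about 11, 7 and 2 fragments. Atr had 0.267, 1.24 and 0.4501 FPKM in MG, 0.538, 0.516 and 0.213 in MZ, and 0.693, 0.508 and 0.525 in WT, and overlaps another row. Chek2, the effector kinase of the ATM branch, was listed at 2.13, 0.822 and 1.19 FPKM in MG, 0, 0 and 0.849 in MZ, and 0 in all 3 WT libraries. About 5 fragments in MG and 1 in MZ lie behind the Chek2 values, and Chek2 was not tested. Hus1, a subunit of the checkpoint clamp, had 21.3 ± 3.47 FPKM in MG, 22.0 ± 1.10 in MZ and 17.8 ± 3.35 in WT (SD, n = 3 each). Its clamp partner Rad9a averaged under 2 FPKM in each group.

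The 300-base windows from 250 bases before to 50 after the start (RefSeq, GRCm38.p6) are shown for Chek1, Topbp1 and Ung, the uracil DNA glycosylase described further on, because in these 3 abundant or well-separated members the MG values lay below (Chek1, Ung) or above (Topbp1) all WT values. They are chr9:36726609-36726908 on the minus strand, chr9:103305077-103305376 on the plus strand and chr5:114130185-114130484 on the plus strand, written 5′ to 3′ with GGGCGG (a GC box, on either strand) and CCAAT (either strand) in capitals.
Chek1: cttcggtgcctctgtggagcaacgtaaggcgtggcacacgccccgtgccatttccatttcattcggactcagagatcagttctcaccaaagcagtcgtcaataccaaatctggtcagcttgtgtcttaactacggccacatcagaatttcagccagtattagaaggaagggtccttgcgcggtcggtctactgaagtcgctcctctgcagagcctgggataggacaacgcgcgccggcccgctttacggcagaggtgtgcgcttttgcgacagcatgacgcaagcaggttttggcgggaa
Topbp1: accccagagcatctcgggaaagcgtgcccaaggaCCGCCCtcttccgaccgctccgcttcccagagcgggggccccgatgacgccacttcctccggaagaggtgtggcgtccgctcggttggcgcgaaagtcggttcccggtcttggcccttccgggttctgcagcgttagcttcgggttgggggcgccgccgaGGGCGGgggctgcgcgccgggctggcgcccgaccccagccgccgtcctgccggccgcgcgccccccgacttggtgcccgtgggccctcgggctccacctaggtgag
Ung: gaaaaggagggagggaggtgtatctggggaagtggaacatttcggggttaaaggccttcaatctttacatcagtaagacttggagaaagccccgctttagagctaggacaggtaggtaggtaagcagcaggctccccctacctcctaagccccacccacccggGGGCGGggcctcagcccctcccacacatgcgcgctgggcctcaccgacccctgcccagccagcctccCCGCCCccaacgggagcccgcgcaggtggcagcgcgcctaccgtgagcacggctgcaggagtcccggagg
Topbp1 and Ung each held 2 GC boxes and Chek1 held 0, and none of the 3 windows held CCAAT. Of 52 windows matched to 44 of the 57 genes, 37 held GGGCGG (71.2%), against 35.7% of all 32851 windows in the table. CCAAT was in 25 of the 52 (48.1%), against 37.4%. The E-box CANNTG, which reads the same on both strands, was in 30 (57.7%), against 72.3%. The comparison is with all windows, and no share among the windows of tested genes alone is given here. Several windows can belong to the same gene, and a match is a description of letters, not of binding.

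In the p53 family the inhibitors were far above the factor they restrain. Mdm4, whose product binds p53 and blocks its activity, was the highest of the 57 genes, with 372, 414 and 459 FPKM in MG, 483, 471 and 449.9 in MZ, and 480.2, 474 and 594 in WT. All MG values lay below all WT values, but MG and MZ overlapped, and MG over WT did not pass. As a share of the FPKM sum the MG and WT values of Mdm4 overlapped too, with 0.0672, 0.0806 and 0.107% in MG, 0.0712, 0.0698 and 0.0684% in MZ, and 0.0668, 0.0810 and 0.0908% in WT. Mdm2, the ubiquitin ligase of p53, had 96.6, 119.7 and 103 FPKM in MG, 92.4, 98.1 and 88.0 in MZ, and 84.9, 95.3 and 81.3 in WT. Every MG value of Mdm2 was above every WT value, by a small margin, and did not pass.

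Trp53 (p53) had 11.3, 11.2 and 4.43 FPKM in MG, 21.2, 11.9 and 15.7 in MZ, and 12.6, 6.67 and 12.98 in WT. The lowest value was in MG 3, and MG and WT overlapped. Cdkn1a, the p21 inhibitor and a classical p53 target, had 2.59, 1.998 and 0 FPKM in MG, 1.29, 0.830 and 2.06 in MZ, and 1.12, 0 and 1.27 in WT, about 4, 4 and 2 fragments.

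Trp63 (chromosome 16, 25683763 to 25892102) had the largest log2 fold change of MG over MZ among the 51. It had 9.74, 11.6 and 10.2 FPKM in MG, 1.95, 2.50 and 3.89 in MZ, and 1.69, 5.28 and 4.78 in WT. The 3 MG values lay above every MZ and WT value, while MZ and WT overlapped. About 104, 26 and 30 fragments lie behind the groups. The log2 fold change was 1.64 ± 0.39 for MG over MZ (SE, limma adjusted p = 0.082, the smallest of any member in the 3 comparisons) and 1.32 ± 0.39 for MG over WT (SE, limma adjusted p = 0.14), so neither passed. Without WT 1, which is not in the comparison but enters the estimate of the spread, the MG over MZ difference passed (limma adjusted p = 0.041, against a range of 0.041 to 0.24 over the 20 alternatives). Mean Trp63 was 1.17 times mean Trp53 in MG, 0.171 times in MZ and 0.364 times in WT. The MG ratio leans on MG 3, where Trp63 was 10.2 and Trp53 4.43 FPKM. In MG 1 Trp63 (9.74) lay below Trp53 (11.3), and in MG 2 they were close (11.6 and 11.2). Gene-level FPKM do not separate the TA and delta-N isoforms of p63.

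Of 24 other known p53 targets, 16 were tested and 0 passed in any comparison. For MG against WT 10 had positive and 6 negative values, with a median of 0.09. For MZ against WT 7 had positive and 9 negative values, with a median of -0.07. Their summed FPKM was 118.6 to 121.5 in MG libraries, 102.7 to 105.1 in MZ and 117.7 to 120.6 in WT, so the MZ sums lay below the others. Such sums rest mostly on the more abundant targets. Rrm2b, the highest in every library, had 33.8 to 53.8 FPKM in MZ and 42.3 to 56.4 in WT, which overlapped. Btg2, an antiproliferative gene, had 11.2, 11.6 and 7.56 FPKM in MG, 3.01, 2.41 and 5.98 in MZ, and 9.74, 17.1 and 13.3 in WT. Its MZ values lay below all MG and WT values (MZ over WT log2 fold change -1.62 ± 0.36 SE, limma adjusted p = 0.36; MG over MZ 1.26 ± 0.36 SE, limma adjusted p = 0.11). Ccng1, cyclin G1, had 5.23, 2.53 and 7.70 FPKM in MG and 0.566, 1.24 and 1.29 in WT (log2 fold change 1.53 ± 0.42 SE, limma adjusted p = 0.12, about 34 and 5 fragments). The MZ values of Ccng1 (1.97, 1.68 and 2.09 FPKM, about 11 fragments) also lay above all WT values. Gadd45g, a stress-induced gene, was listed at 2.64, 1.70 and 2.12 FPKM in MZ and at 0 in all 3 WT libraries, which is about 3 fragments in MZ (limma adjusted p = 0.66).

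**Figure D3:**
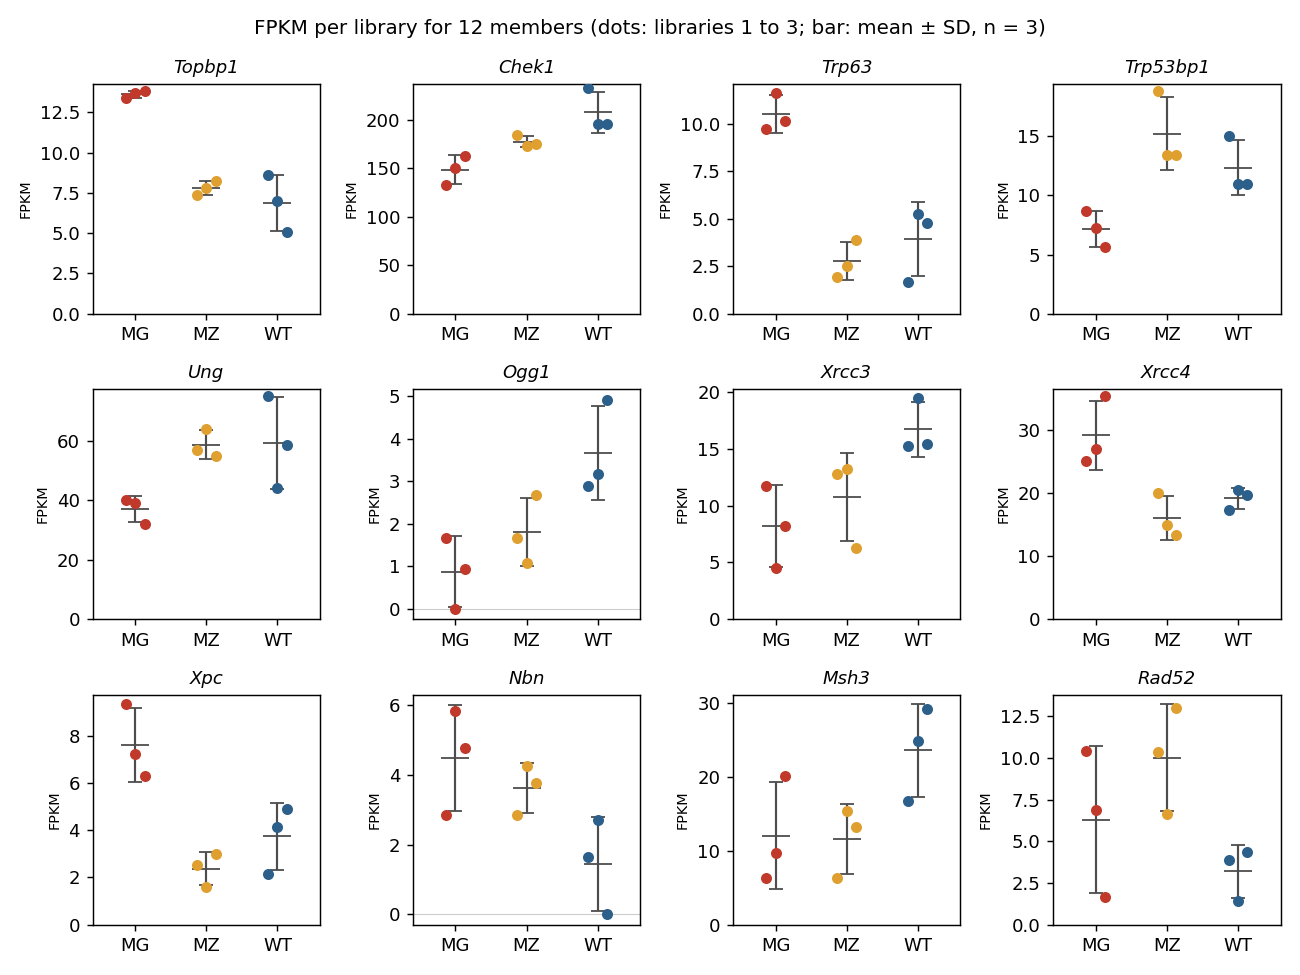
FPKM per library for 12 members, each panel with its own axis, with dots for libraries 1 to 3 of MG, MZ and WT and bars for the mean ± SD (n = 3). Topbp1, Trp63, Xrcc4 and Xpc show all MG dots above the MZ and WT dots, and Chek1, Ung and Trp53bp1 show all MG dots below them.

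Among the sensors and mediators of double-strand breaks, Trp53bp1 and Nbn stood out in opposite directions. Trp53bp1 encodes 53BP1, which steers breaks towards end joining. It had 8.68, 7.23 and 5.62 FPKM in MG, 18.8, 13.4 and 13.4 in MZ, and 15.02, 11.01 and 11.001 in WT. All MG values were below all MZ and WT values (MG over MZ log2 fold change -0.99 ± 0.28 SE, limma adjusted p = 0.11), and the locus overlaps Tubgcp4. Nbn, the NBS1 subunit of the MRN complex that first binds broken ends, had 2.84, 5.85 and 4.77 FPKM in MG, 2.85, 4.26 and 3.77 in MZ, and 1.64, 2.69 and 0 in WT. Both MG and MZ lay above WT (MZ over WT log2 fold change 1.10 ± 0.50 SE, limma adjusted p = 0.78), on about 20, 15 and 5 fragments, and without WT 3 the MZ over WT value was 0.56. Rad50, the ATPase of the same complex and the highest of this group, had 17.5, 19.5 and 25.96 FPKM in MG, 14.7, 16.5 and 10.9 in MZ, and 14.5, 17.9 and 15.1 in WT, with MG above MZ and overlapping WT. Mre11a, its nuclease, averaged 3.83 ± 1.42 FPKM in MG, 3.39 ± 1.82 in MZ and 3.07 ± 0.72 in WT (SD, n = 3 each), and the groups overlapped.

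All 11 homologous recombination genes were tested, and 0 passed in any comparison. Brca2, a mediator of recombination and the highest of them, had 29.0, 34.6 and 44.3 FPKM in MG, 27.8, 26.6 and 26.6 in MZ, and 27.5, 29.1 and 27.7 in WT. The MZ and WT values lay within a narrow range, and MG 3 was the highest. Brca1, which acts in end resection and in recruiting BRCA2, had 9.83, 12.7 and 15.6 FPKM in MG, 9.58, 9.92 and 6.28 in MZ, and 7.95, 6.55 and 9.67 in WT. Its MG values were above all WT values, the nearest pair being close, and did not pass.

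The other recombination genes differed from each other in order of the groups. Xrcc3 had 11.8, 4.54 and 8.23 FPKM in MG, 12.8, 13.2 and 6.26 in MZ, and 15.3, 19.5 and 15.4 in WT. Both MG and MZ lay below WT (MG over WT log2 fold change -1.02 ± 0.37 SE, limma adjusted p = 0.19), and the locus overlaps Klc1. Xrcc2 had 14.03 ± 4.17 FPKM in MG, 7.79 ± 0.84 in MZ and 10.9 ± 0.58 in WT, with MZ below both other groups. Rad51d had 6.11 ± 1.15 FPKM in MG, 10.96 ± 1.73 in MZ and 7.68 ± 1.16 in WT (SD, n = 3 each), with MZ above both other groups. Rad52, an annealing protein, had 10.4, 6.87 and 1.66 FPKM in MG, 10.4, 6.66 and 13.01 in MZ, and 3.86, 1.40 and 4.37 in WT. The MZ values lay above WT (log2 fold change 1.43 ± 0.54 SE, limma adjusted p = 0.74), while the MG values spanned both. Rad54l, a motor protein of the same step, had 2.24, 2.64 and 2.93 FPKM in MG, 5.15, 3.85 and 5.45 in MZ, and 1.48, 4.87 and 0.839 in WT. The MZ and WT values overlapped (MZ over WT log2 fold change 0.95 ± 0.45 SE, limma adjusted p = 0.78). That value was 1.43 without WT 2 and 0.60 without WT 3.

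In non-homologous end joining, Xrcc4, the scaffold of DNA ligase IV, was the most abundant. It had 25.0, 26.9 and 35.3 FPKM in MG, 19.9, 14.9 and 13.3 in MZ, and 17.3, 20.5 and 19.6 in WT. All MG values were above all MZ and WT values (MG over MZ log2 fold change 0.82 ± 0.24 SE, limma adjusted p = 0.11). Xrcc6, which encodes the Ku70 end-binding subunit, had 17.6 ± 2.71 FPKM in MG, 11.5 ± 2.49 in MZ and 13.4 ± 2.50 in WT (SD, n = 3 each), with MG above MZ only. Its partner Xrcc5 (Ku80) had 17.4, 12.8 and 4.11 FPKM in MG, with MG 3 lowest, 15.6, 14.1 and 9.51 in MZ, and 9.53, 10.4 and 13.5 in WT. The catalytic kinase of the pathway, Prkdc, averaged 0.30, 0.25 and 0.31 FPKM in MG, MZ and WT, on 5 to 7 fragments per group.

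In base excision repair, Ung, the glycosylase that removes uracil from DNA, was highest. Ung (chromosome 5, 114130386 to 114139323) had 40.2, 39.0 and 31.9 FPKM in MG, 57.03, 64.1 and 54.7 in MZ, and 75.2, 44.2 and 58.5 in WT. All MG values were below all MZ and WT values, and WT 2 came closest. The log2 fold change was -0.64 ± 0.22 for MG over WT (SE, limma adjusted p = 0.18) and -0.65 ± 0.22 for MG over MZ (SE, limma adjusted p = 0.16). As a share of the FPKM sum, MG (0.00725 to 0.00759%) overlapped WT (0.00756 to 0.0105%) but not MZ (0.00832 to 0.00949%). Ogg1, the glycosylase of oxidised guanine, had 1.67, 0 and 0.932 FPKM in MG, 1.67, 1.07 and 2.66 in MZ, and 2.89, 3.16 and 4.92 in WT. Both MG and MZ lay below WT (MG over WT log2 fold change -1.41 ± 0.46 SE, limma adjusted p = 0.16), but only about 2, 4 and 7 fragments lie behind the groups, and the locus overlaps Camk1. Xrcc1, the scaffold of single-strand break repair, had 11.2, 5.17 and 1.25 FPKM in MG, 10.1, 10.0 and 8.90 in MZ, and 7.73, 3.17 and 2.19 in WT. The MZ values lay above WT (log2 fold change 1.13 ± 0.57 SE, limma adjusted p = 0.79). Its ligase partner Lig3 had 8.995 ± 2.45 FPKM in MG, 5.38 ± 1.02 in MZ and 5.68 ± 1.18 in WT (SD, n = 3 each), with MG above both, and the locus overlaps Rffl.

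In mismatch repair, Msh6, a subunit of the complex that finds mispaired bases, was highest, with 22.6, 25.2 and 36.0 FPKM in MG, 21.7, 22.0 and 19.7 in MZ, and 19.6, 27.5 and 25.8 in WT. The MG and MZ values each overlapped WT. Msh3, a subunit for insertion and deletion loops, had 6.26, 9.68 and 20.1 FPKM in MG, 6.30, 15.4 and 13.2 in MZ, and 16.8, 24.9 and 29.1 in WT. The MZ values lay below WT (log2 fold change -1.01 ± 0.43 SE, limma adjusted p = 0.76, and -0.66 without MZ 1), and of the MG values only MG 3 reached the WT range. Msh3 is among the 16 genes that share a locus with another row.

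Nucleotide excision repair genes were low. Xpc, the sensor of bulky lesions, had 9.36, 7.24 and 6.30 FPKM in MG, 2.51, 1.61 and 2.99 in MZ, and 2.16, 4.15 and 4.90 in WT. All MG values were above all MZ and WT values (MG over MZ log2 fold change 1.36 ± 0.37 SE, limma adjusted p = 0.097), on about 58, 17 and 23 fragments. Ercc3, a helicase of the TFIIH complex, had 6.997, 10.1 and 4.90 FPKM in MG, 11.4, 6.75 and 3.49 in MZ, and 12.1, 4.98 and 12.03 in WT, and the groups overlapped.

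The Fanconi anaemia genes and helicases were low, with a median of 3.1 FPKM over the means of the 6 genes. Blm, a helicase that dissolves recombination intermediates, was the highest, with 3.38, 3.74 and 4.88 FPKM in MG, 3.41, 4.36 and 4.24 in MZ, and 3.77, 3.22 and 5.70 in WT, which overlapped. Fancm, a translocase at stalled forks, had 2.23, 5.17 and 4.22 FPKM in MG, 2.25, 1.61 and 2.001 in MZ, and 4.58, 3.18 and 3.83 in WT. The MZ and WT values did not overlap (MZ over WT log2 fold change -0.72 ± 0.37 SE, limma adjusted p = 0.79). For MZ against WT all 5 tested genes of this group had negative values and 0 passed. Over all tested genes 5278 of 10801 were negative. Apart from Fancm, the values of this group were small, from -0.20 to -0.04 with SE of 0.34 to 0.54. Fanca was listed at 0 in 8 of the 9 libraries.

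Beyond the 57 genes, 154 further genes of the pathway and p53 targets were listed from their known roles, of which 151 had a row and 130 were tested. None passed by limma in any comparison. An unadjusted p under 0.05 was reached by 16 for MG against WT (12.3%, against 17.7% of all tested genes), by 8 for MZ against WT (6.15% against 6.3%) and by 17 for MG against MZ (13.1% against 17.6%). Their medians were 0.04, 0.01 and 0.04 in that order. By the q-value in the authors' deposited table, 3, 0 and 5 of the 130 lay under 0.05, where 4.13, 0.787 and 9.05% of all tested genes did.

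Among them were abundant transcripts. Sfr1, a factor of homologous recombination, had 1351, 1125 and 938 FPKM in MG, 1888, 1861 and 1734 in MZ, and 1886, 1258 and 1289.7 in WT. Its MG values lay below MZ (log2 fold change -0.70 ± 0.21 SE, limma adjusted p = 0.12, authors' deposited Cuffdiff q = 0.011) and overlapped WT. With quantile normalization the MG over MZ value was 0.09. Ube2t, the ubiquitin-conjugating enzyme of the Fanconi anaemia pathway, had 430.2, 499.9 and 369 FPKM in MG and 694, 643 and 689 in WT, without overlap (log2 fold change -0.65 ± 0.16 SE, limma adjusted p = 0.11). The MZ values of Ube2t (536, 556 and 499 FPKM) also lay below all WT values. H2afx, the histone variant phosphorylated at breaks, had 284, 162 and 69.1 FPKM in MG and 379, 447 and 397 in MZ (log2 fold change -1.46 ± 0.42 SE, limma adjusted p = 0.11). In WT it had 478, 244 and 404 FPKM, which overlapped MG. The authors' deposited Cuffdiff q-value of H2afx was 0.00064 for MG against MZ and 0.0019 for MG against WT. The lowest H2afx value was in MG 3. Without MG 1 the MG over MZ difference passed (limma adjusted p = 0.039, against a range of 0.039 to 0.27 over the 20 alternatives), while without MG 3 its log2 fold change was -0.92.

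Rfc3, a subunit of the clamp loader, had 13.6, 12.2 and 11.3 FPKM in MG and 31.3, 23.5 and 28.8 in WT, without overlap (log2 fold change -1.11 ± 0.25 SE, limma adjusted p = 0.083). Uvssa, a transcription-coupled repair factor, had 9.78, 10.6 and 25.5 FPKM in MG and 3.85, 4.23 and 5.54 in WT (log2 fold change 1.44 ± 0.38 SE, limma adjusted p = 0.11). Hltf, a fork-remodelling translocase, had 6.22, 5.93 and 8.59 FPKM in MG and 1.93, 2.77 and 1.53 in MZ (log2 fold change 1.37 ± 0.36 SE, limma adjusted p = 0.092). Mad2l2, a subunit of translesion polymerase zeta, had 26.5, 24.5 and 19.5 FPKM in MZ and 10.4, 14.7 and 4.36 in WT (log2 fold change 1.30 ± 0.39 SE, limma adjusted p = 0.62, and 0.86 without WT 3). Poli, a translesion polymerase, had 4.78, 6.12 and 7.60 FPKM in MZ and 9.90, 9.94 and 14.97 in WT (log2 fold change -0.81 ± 0.33 SE, limma adjusted p = 0.74). Its MG values (3.81, 7.36 and 4.80 FPKM) also lay below all WT values (MG over WT log2 fold change -1.01 ± 0.33 SE, limma adjusted p = 0.16).

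The summed FPKM of the 57 genes was 1051 to 1201 in MG libraries, 1108 to 1199 in MZ and 1169 to 1322 in WT. As a share of each library's FPKM sum, the 57 genes made up 0.190 to 0.280% in MG, 0.168 to 0.177% in MZ and 0.171 to 0.202% in WT. Every MG share was above every MZ share, while the WT shares overlapped both. The library medians of the tested members, as log2 against the WT mean, were 0.12, 0.19 and 0.24 in MG, 0.05, 0.12 and -0.15 in MZ and -0.003, -0.08 and 0.10 in WT. Those over all tested genes were 0.08, 0.04 and 0.05 in MG, 0, 0.03 and 0.04 in MZ and 0, 0.003 and 0.01 in WT. Differences in RNA per oocyte between the groups and differences in the level of these transcripts cannot be told apart in such bulk values.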

How the data were processed

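RNA of 9 libraries of fully grown oocytes (3 MG, 3 MZ, 3 WT) went through Smart-seq2 amplification and NEBNext Ultra library preparation, per the labels' protocols. Per the series design and the submitters' processing notes, the authors trimmed paired-end reads of 150 bp and used TopHat2 2.0.13 (mm10) for alignment. Cufflinks 2.2.1 gave the deposited FPKM. The table also holds the authors' deposited p-value and q-value from Cuffdiff for each pair of groups. Strand handling: not given in the sources used here.

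Of 24255 rows, 27 whose symbol had become a date were left out. Fragments per library were estimated from the lowest FPKM of 1840 genes with 1 annotated transcript of at least 1500 bp (GENCODE M21, GRCm38), where 83.8 to 91.3% of low values lay within 15% of 1 fragment. No molecular identifiers were used, so fragment numbers do not tell copies made by amplification from separate molecules.

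The 10801 genes reaching 1 FPKM in 3 or more libraries were fitted as log2(FPKM + 1), a scale that understates the change of low genes, with limma 3.58.1 in R 4.3.3 (trend of the variance on the level, all 9 libraries, 6 residual degrees of freedom). Tests were two-sided, adjusted by Benjamini-Hochberg within each comparison, with a threshold of 0.05. The step was tested on simulated data. The members, the gene lists and the rule for named genes were chosen with earlier results of these data known. Named are, per comparison, the 6 members and 4 other pathway genes with the smallest p, the highest member of each of 9 role groups, and 10 checkpoint genes (Atm, Atr, Chek1, Chek2, Trp53, Trp63, Mdm2, Cdkn1a, Brca1, Brca2). Other members of these roles were named after their values were seen. Alternatives covered the pseudocount, filter, scaling, variance model, libraries in the fit, a replicate block, leaving out each library and, added later, a transcript length trend.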

Additional observations from a re-analysis of the deposited data

How the results depend on the processing

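For MG against WT and MZ against WT, 0 members passed under all 20 alternatives. For MG against MZ the count was 0 except without WT 1, where Trp63 passed, giving 1 (range 0 to 1 when leaving out a library), and for the other pathway genes 0 except without MG 1, where H2afx passed, giving 1 (range 0 to 1). Of 594 alternative values of the 30 named fold changes, 591 kept their direction and side of the threshold, 2 passed (Trp63 and H2afx, as above), and 1 reversed (Sfr1, 0.0948 for MG over MZ with quantile normalization). The cause was not tested.

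The member median for MG against WT was 0.28 with a pseudocount of 0.1, 0.114 with 5, 0.0361 with quantile normalization, 0.53 with scaling to the same FPKM sum and 0.0499 with the length trend removed, and 0.12 to 0.28 when leaving out a library. For MG against MZ it was 0.24, 0.0453, 0.0393, 0.471 and -0.0149 in the same order, 0.0948 with the filter of 5 FPKM, and 0.0339 to 0.213 when leaving out a library. Scaling to the same sum moved the median of all tested genes to 0.36 for MG against WT and 0.39 for MG against MZ. For MZ against WT the median was -0.0927 to 0.0433 when leaving out a library. Members without overlap numbered 14 to 22, 11 to 19 and 17 to 24 when leaving out a library, for MG against WT, then MZ against WT, then MG against MZ, as fewer libraries overlap less easily. The shares over all tested genes in those settings are not given here, so these numbers are not a result about the members. Unadjusted p under 0.05 for MG against WT was reached by 5 members without MG 2 and by 7 without WT 1, against 11. For MZ against WT it was reached by 0 without MZ 1 and by 1 without MZ 3, against 3. Shares of all tested genes at that p in these fits are not given here, so the counts cannot be set against a background.

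No pairing by the shared replicate numbers was seen in the values: deviations of same-numbered libraries had correlations of -0.07 to 0.073 (9 pairs). Such correlations do not tell how the libraries were prepared. With the replicate block 0 members passed in each comparison, and 9, 4 and 9 had an unadjusted p under 0.05. The share of all tested genes with the block is not given here, so those counts too lack a background. Precision is limited by depth, since 1 fragment in a 1 kb transcript is worth 1.71 to 3.06 FPKM.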
